A study of Mus musculus with 18 samples.

Results

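The respiratory chain subunits described here are 48 nuclear genes that encode parts of the 5 enzyme complexes of oxidative phosphorylation, taken as a list of gene symbols. A probe of the array carried 47 of the symbols, and 44 genes passed the filter on low signal, of 11233 genes that passed it in all. The measured members were 26 of 27 listed subunits of complex I, 3 of 4 of complex II, 5 of 7 of complex III, 9 of 9 of complex IV and the 1 listed subunit of complex V. Ndufs1, a core subunit of complex I, and Sdha, the flavoprotein of complex II, were detected on 0 arrays. Uqcrfs1, the Rieske iron-sulfur protein of complex III, was detected on 1 of 17 arrays. Uqcrb of complex III was not analysed here because no probe was assigned to it. All 44 measured members were detected on all 17 arrays. Subunits encoded in mitochondrial DNA were not listed.

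The muscle was the tibialis anterior, at the front of the lower leg, of 2-month-old mice. A/JOlaHsd mice are wild-type by their label and dysferlin sufficient. A/J mice are dysferlin deficient. The A/J-MyD88 strain lacks MyD88 in addition, so both deficient strains share the lack of dysferlin, a membrane repair protein of muscle fibres. MyD88 relays signals from most Toll-like receptors. In each strain the muscle of one leg received single-stranded RNA (ssRNA), an agent recognised by endosomal Toll-like receptors, and the opposite leg received saline. Each leg was given 3 injections within 10 days, separated by a recovery of 3 days. Each of the 6 groups had 3 Illumina bead arrays. Nothing in the labels says whether arrays of a group came from separate animals, so p-values measure the spread between these arrays, which may be technical.

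The respiratory chain sits in the inner mitochondrial membrane. Complexes I and II feed electrons from NADH and succinate into ubiquinone, complex III passes them to cytochrome c, and complex IV hands them to oxygen. Complexes I, III and IV pump protons, and complex V, the ATP synthase, uses the gradient to make ATP. Muscle fibres are rich in mitochondria and carry muscle isoforms of several complex IV subunits, while most other cells carry the widely expressed isoforms.

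A/JOlaHsd ssRNA array 2 held no signal, with a highest intensity of 88.7 against at least 13471 on every other array, and was left out. Its group therefore has 2 arrays. Arrays of A/JOlaHsd were dimmer, with a mean intensity of 37.4 to 50.2 and 28.9% to 33.2% of probes detected. Those of A/J had 120.5 to 147.3 (37.2% to 42.4% detected), and those of A/J-MyD88 98.1 to 140.3 (39.0% to 42.6% detected). All 6 muscle fibre markers (Ckm, Acta1, Mb, Myh4, Tnnt3 and Actn3) were detected on all 17 arrays. Dysf read log2 9.34 to 9.71 on the A/JOlaHsd arrays and 5.64 to 6.39 on those of the deficient strains. The main Myd88 probe read 7.29 to 7.79 in saline legs and 7.42 to 7.97 in ssRNA legs of A/J-MyD88. In A/J it read 6.73 to 7.08 in saline legs and 7.89 to 8.32 in ssRNA legs. Where that probe lies relative to the disrupted part of Myd88 is not stated, and it does not check the loss of MyD88. With at most 3 arrays a group, precision is limited throughout.

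In dysferlin-deficient A/J muscle, ssRNA was accompanied by lower transcripts of subunits from complexes I, III, IV and V. Of the 44 measured members, 14 were lower than in the saline legs and 0 were higher at an adjusted p under 0.05 (limma with Benjamini-Hochberg adjustment over all genes), where 10.0% of all genes were called lower and 12.4% higher. The falls were moderate, from 21.8% for Ndufa4 to 47.4% for Atp5e. The 14 were Ndufa3, Ndufa5, Ndufa8, Ndufa9, Ndufa10, Ndufb6, Ndufs7, Ndufv1, Ndufv2 and Ndufv3 of complex I, Uqcrc1 of complex III, Cox7a1 and Ndufa4 of complex IV, and Atp5e of complex V. The median log2 difference over the members was -0.31, against -0.05 over all genes tested, and 42 of 44 lay below 0, against 56.7% of all genes. For 30 members every ssRNA array was below every saline array, which held for 24.1% of all genes. The members were chosen with earlier results of these data known, so these counts and shares are not an independent test. In this whole-muscle RNA, fewer cells of a type and less RNA per cell cannot be told apart.

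**Figure D1:**
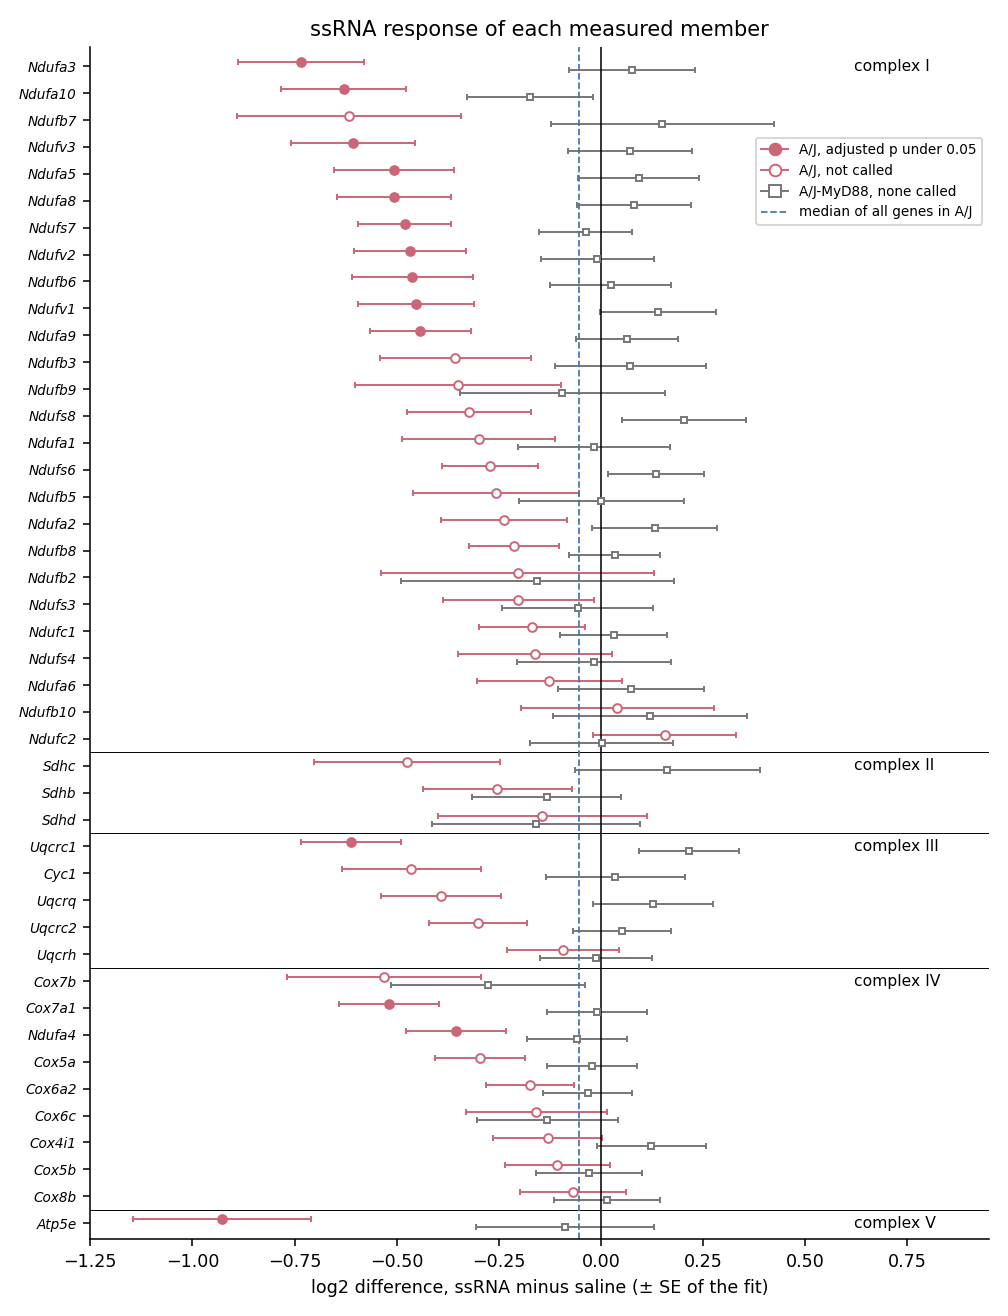
Log2 difference between ssRNA and saline legs (x axis, ± SE of the fit) for each of the 44 measured members, grouped by complex, in A/J (circles, filled where adjusted p was under 0.05) and A/J-MyD88 (squares). The dashed line is the median of all genes in A/J. The 42 A/J values below 0 run down to -0.93 for Atp5e, while the A/J-MyD88 values lie between -0.28 and 0.21.

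Several of these calls rest on single arrays or on the scaling. The members called lower numbered 7 when saline array 3 of A/J was left out and 8 when its ssRNA array 2 was, and 7 of the 14 kept their call whichever of the 6 A/J arrays was left out (Atp5e, Cox7a1, Ndufa10, Ndufa3, Ndufs7, Ndufv3 and Uqcrc1). Centring each array on the median of the detected probes called 20 members and centring on the median of all probes called 3 (Atp5e, Ndufa10 and Ndufa3), and the median of all genes in A/J moved by -0.12 and 0.15 with these scalings. The median of the members stayed below that of all genes, by -0.27 with either centring and by -0.26 as reported. Over all genes, 1397 were called higher and 1123 lower, which became 1543 and 2753 with the first centring and 2490 and 349 with the second. The authors' normalized values called 9 members. The fit with the signal-free array kept in called 0 members and 13 genes lower, and the fit on only the 12 arrays of A/J and A/J-MyD88 called 21.

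**Figure D2:**
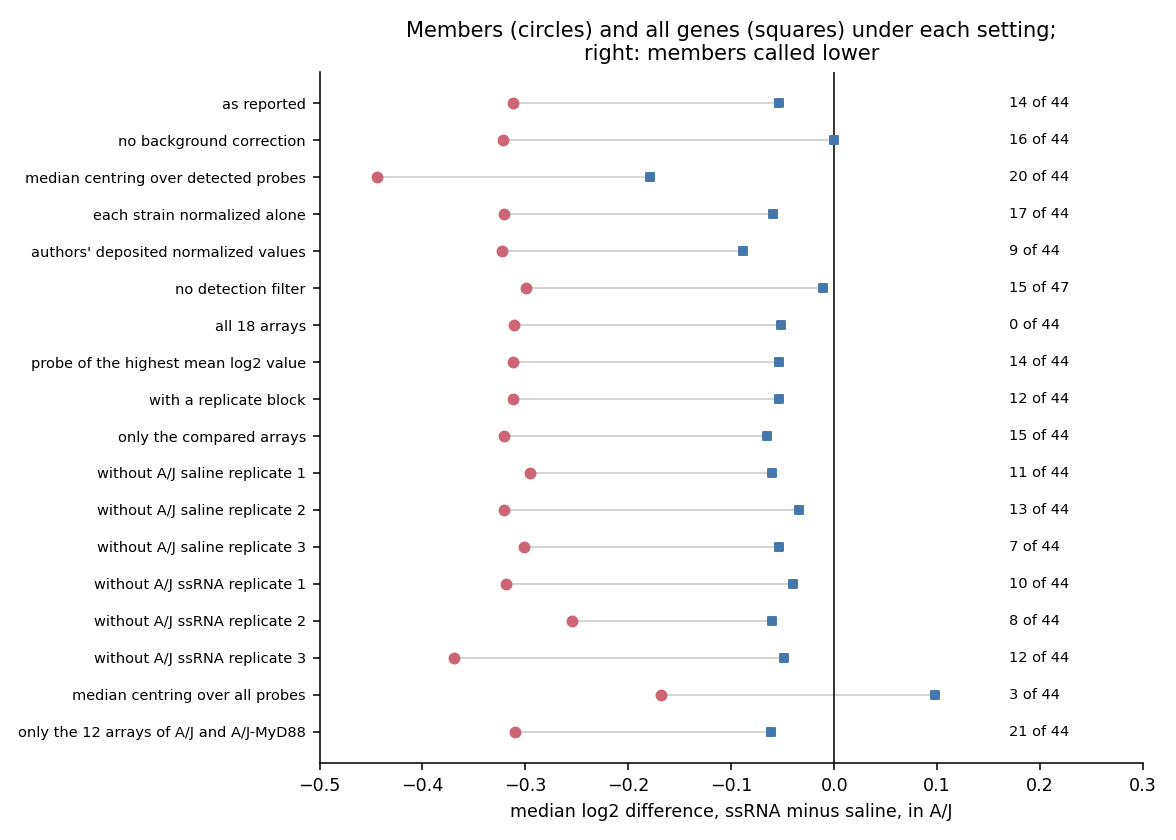
Median log2 difference between ssRNA and saline legs of A/J (x axis) over the members (circles) and over all genes (squares) under each way of processing the arrays (rows), with the members called lower at the right. The members' median lies below that of all genes in every row, from -0.44 to -0.17, while the members called range from 0 to 21.

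The proximal promoters of the called members were read for short motifs of factors that have been tied to respiratory genes, because their transcripts moved in one direction. RefSeq sequences (GRCm38.p6) of 250 bases before and 50 after the start were found for 35 of the measured members. The letters searched, on both strands, were GCATGCG for NRF1, CCGGAAG for GABP (NRF2), AAGGTCA for the oestrogen-related receptors and AAGATGG for YY1, and the AAG that ends the GABP letters can also begin the letters of the receptors or of YY1. They were held by 4, 8, 3 and 7 of these 35 members in that order, and by 2, 2, 1 and 3 of the 14 called members. Of the 9058 tested genes with a promoter, 6.79%, 18.92%, 3.91% and 8.38% held them. The 250 bases before the start are shown for the 3 called members with a match in that stretch. All 3 genes lie on the minus strand, and capitals mark the match:
Ndufa8 (chr2:36049339-36049588): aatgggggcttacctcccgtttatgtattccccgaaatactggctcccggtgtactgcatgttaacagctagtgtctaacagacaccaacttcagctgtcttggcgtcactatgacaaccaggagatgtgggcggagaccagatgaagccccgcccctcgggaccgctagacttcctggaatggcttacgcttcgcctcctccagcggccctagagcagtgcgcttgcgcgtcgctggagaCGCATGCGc
Ndufb6 (chr4:40279422-40279671): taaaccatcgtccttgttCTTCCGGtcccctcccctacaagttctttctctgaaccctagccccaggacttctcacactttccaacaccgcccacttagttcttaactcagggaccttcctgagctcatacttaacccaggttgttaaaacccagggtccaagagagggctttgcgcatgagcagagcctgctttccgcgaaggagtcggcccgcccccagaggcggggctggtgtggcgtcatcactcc
Atp5e (chr2:174464102-174464351): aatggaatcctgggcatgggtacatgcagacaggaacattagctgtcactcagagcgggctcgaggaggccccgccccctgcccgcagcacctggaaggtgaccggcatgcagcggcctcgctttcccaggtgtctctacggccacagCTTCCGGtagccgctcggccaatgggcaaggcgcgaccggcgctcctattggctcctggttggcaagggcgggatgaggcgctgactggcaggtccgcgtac
In Ndufa8 the NRF1 letters occur on both strands as 1 palindrome within the last 9 bases before the start. In Ndufb6 and Atp5e the GABP letters read on the opposite strand of the gene, 232 and 102 bases before the start. Uqcrc1 also holds the NRF1 letters and Atp5e those of the receptors, both within the 50 bases after the start, and the 7 YY1 matches all lie after the start. A match is a run of letters and not a binding site, and the remaining called members hold no match in this stretch before the start.

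Complex I, the NADH dehydrogenase, held 10 of the 14 calls and 26 of the 44 measured members. This count and those of the other complexes below stand against the 10.0% of all genes called lower in A/J. Among its 5 measured core subunits, Ndufs7, Ndufv1 and Ndufv2 fell in A/J and Ndufs3 (-0.20) and Ndufs8 (-0.32) did not pass the test. Ndufs7, the subunit whose iron-sulfur cluster hands electrons to ubiquinone, read log2 12.51, 12.37 and 12.39 on the A/J saline arrays and 11.90, 11.97 and 11.95 on the ssRNA arrays. The 2 sets of values did not overlap, and the ssRNA arrays lay close together. The difference was -0.48 ± 0.11 (SE, adjusted p = 0.00619). Ndufv1 binds the flavin that takes electrons from NADH, and Ndufv2 is its iron-sulfur partner. Ndufv1 fell by 0.45 on the log2 scale (adjusted p = 0.0312) and Ndufv2 by 0.47 (adjusted p = 0.0228). The call of Ndufv1 was lost when any one of the 6 A/J arrays was left out (adjusted p 0.0554 to 0.0962), and with replicate numbers as a block its adjusted p was 0.0510. Ndufv2 kept its call in 2 of these 6 fits (adjusted p up to 0.0723). It lost the call with the authors' values and with centring on all probes.

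Of the 21 measured accessory subunits, which surround the core and are needed for its assembly and stability, 7 fell in A/J. Ndufa3, of the membrane arm, read 12.43, 12.22 and 12.55 in saline legs and 11.53, 11.82 and 11.65 in ssRNA legs of A/J. All 3 ssRNA arrays were below all saline arrays, and the difference was -0.73 ± 0.15 (SE, adjusted p = 0.00280). A second Ndufa3 probe gave -0.74 (adjusted p = 0.00278 over all probes). Ndufa10, which has the fold of a nucleoside kinase, read 12.009, 11.596 and 11.999 in saline legs and 11.277, 11.253 and 11.183 in ssRNA legs. Saline array 2 stood below the other two saline arrays and still above every ssRNA array, and the difference was -0.63 ± 0.15 (SE, adjusted p = 0.00748). Ndufv3, a small subunit beside the flavin site, read 11.85, 11.78 and 11.88 in saline legs and 11.20, 11.23 and 11.27 in ssRNA legs. These arrays separated clearly, with a difference of -0.61 ± 0.15 (SE, adjusted p = 0.00880).

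The other called accessory subunits were Ndufa5 (-0.51), Ndufa8 (-0.51), Ndufa9 (-0.44) and Ndufb6 (-0.46), with adjusted p-values from 0.0156 to 0.0338, and each lost its call without A/J ssRNA array 2 and also without A/J saline array 3. Ndufb7 (-0.62 ± 0.27) had a difference as large as Ndufv3 with a wider error and did not pass (adjusted p = 0.121). The accessory subunits Ndufa1, Ndufa2, Ndufa6, Ndufb2, Ndufb3, Ndufb5, Ndufb8, Ndufb9, Ndufc1, Ndufs4 and Ndufs6 also did not pass, with differences from -0.36 to -0.13. Ndufb10 (0.04) and Ndufc2 (0.16), of the membrane arm, were the 2 members above 0, and neither passed the test. Further probes existed for 13 members. Of these 17 probes, 16 gave a difference below 0 in A/J and 3 were called lower, of Ndufa3, Ndufa5 and Ndufs6, while a second Ndufb8 probe gave 0.15 against -0.21 on the main probe. The main probes of Ndufb10 and Ndufc2 were above 0 and their second probes at -0.39 and -0.26, none called. Further probes of the called genes Ndufa8 (-0.30), Ndufb6 (-0.26) and Ndufv3 (-0.54 and -0.11) were below 0 and did not pass.

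**Figure D3:**
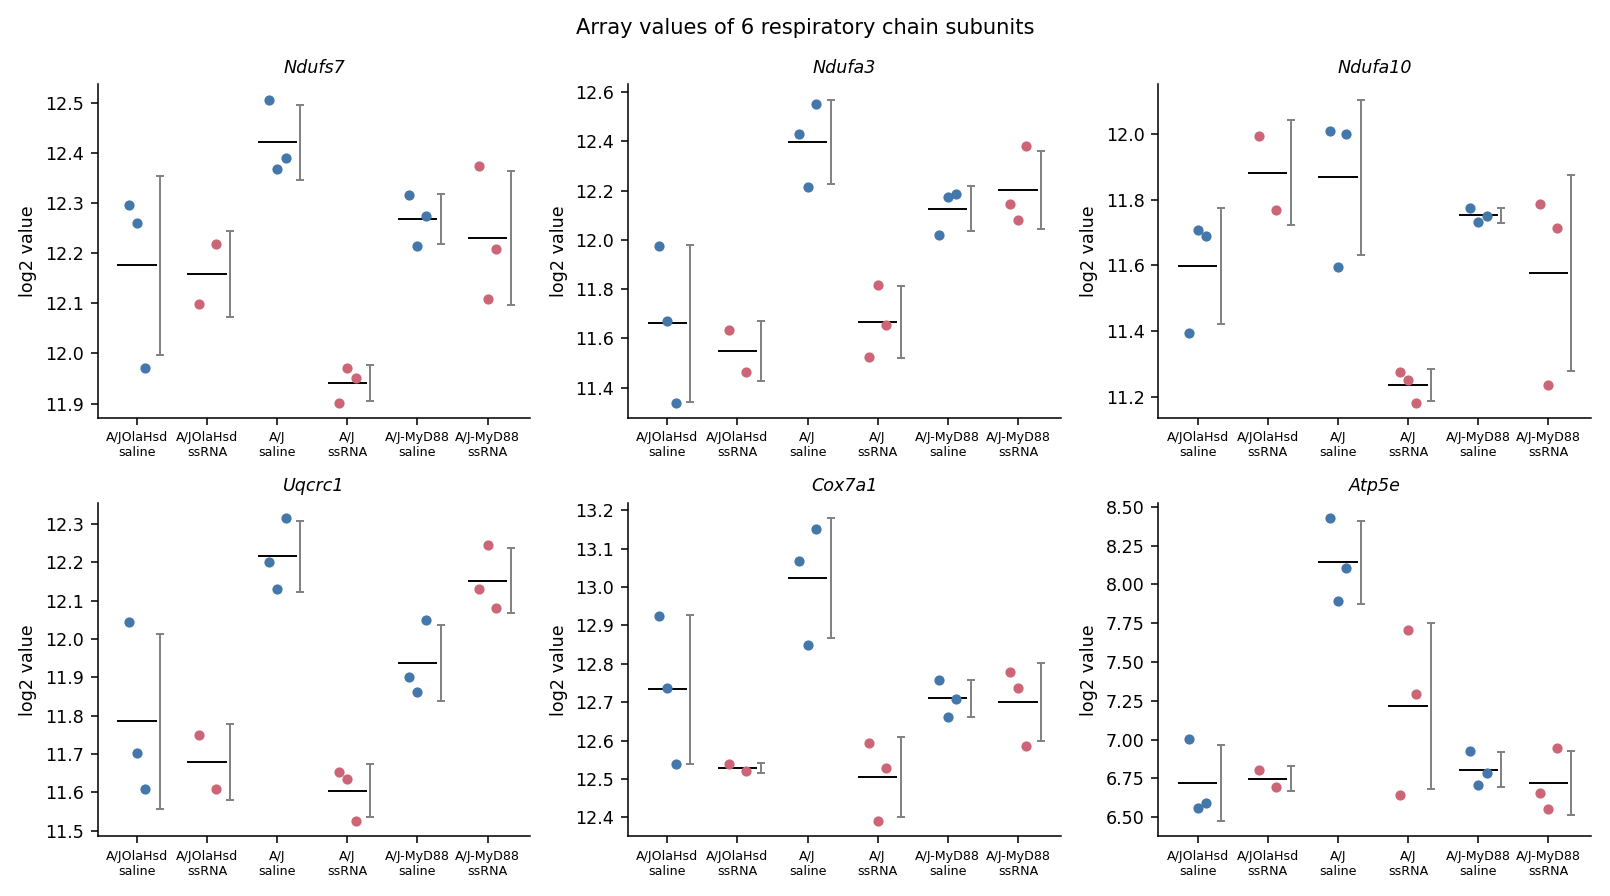
Normalised log2 value (y axis) of Ndufs7, Ndufa3, Ndufa10, Uqcrc1, Cox7a1 and Atp5e on each array (points), by strain and injection (x axis). Black lines are group means and grey bars the SD. In all 6 panels every A/J ssRNA array lies below every A/J saline array.

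Complex II, succinate dehydrogenase, also belongs to the citric acid cycle, and 0 of its 3 measured subunits were called in A/J. Sdhc, one of the membrane anchors, read 11.44, 11.39 and 11.42 in saline legs and 10.91, 10.97 and 10.94 in ssRNA legs of A/J. The A/J arrays did not overlap and lay close within each group, but the error of the fit is set by all 17 arrays, and the SD of Sdhc was 0.65 in A/JOlaHsd saline legs against 0.03 in A/J. The difference of -0.47 ± 0.23 (SE) had an adjusted p of 0.152. Sdhc was called lower in the fit on only the A/J arrays (adjusted p = 0.00974) and in that on the 12 arrays of A/J and A/J-MyD88 (adjusted p = 0.00545). Sdhb, the iron-sulfur subunit, read 11.22, 11.20 and 11.39 against 11.08, 10.73 and 11.23, with overlapping groups and a difference of -0.25 (adjusted p = 0.359). Sdhd, the other anchor, differed by -0.14 (adjusted p = 0.746).

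Complex III, the cytochrome bc1 complex, had 1 call among 5 measured subunits in A/J, and all 5 lay below 0. Uqcrc1, a core protein on the matrix side, had the smallest p of all members. It read 12.20, 12.13 and 12.32 in A/J saline legs and 11.65, 11.63 and 11.53 in ssRNA legs. The gap between the groups was far wider than the spread within them, and Uqcrc1 fell by 34.5% (log2 -0.61 ± 0.12 SE, adjusted p = 0.00198). Its partner Uqcrc2 read 12.40, 12.17 and 12.42 against 12.07, 11.92 and 12.10, without overlap, and the difference of -0.30 ± 0.12 had an adjusted p of 0.0855. Cyc1, the cytochrome c1 that passes electrons to cytochrome c, read 11.20, 10.72 and 11.45 against 10.87, 10.43 and 10.68, and these groups overlapped (-0.46 ± 0.17, adjusted p = 0.0610). Uqcrq, a small membrane subunit on a dim probe, read 6.62, 6.84 and 6.45 against 6.27, 6.42 and 6.03, with a difference of -0.39 ± 0.15 (adjusted p = 0.0664). The hinge protein Uqcrh differed by -0.09 (adjusted p = 0.689).

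In complex IV, cytochrome c oxidase, 2 of 9 subunits fell in A/J and all 9 lay below 0, with a median of -0.17. Cox7a1, the heart and skeletal muscle isoform of subunit 7A, read 13.07, 12.85 and 13.15 in A/J saline legs and 12.59, 12.39 and 12.53 in ssRNA legs. The groups did not overlap, and the difference was -0.52 ± 0.12 (SE, adjusted p = 0.00583). Ndufa4 was once assigned to complex I and is counted here as a subunit of complex IV. It read 12.57, 12.62 and 12.62 against 12.27, 12.04 and 12.44, without overlap. Its fall of 0.35 on the log2 scale was the call nearest to the threshold (adjusted p = 0.0485), was lost without any of 5 of the 6 A/J arrays, and had an adjusted p of 0.0955 with a replicate block. Cox5a, of the part that faces the matrix, read 12.63, 12.54 and 12.66 against 12.29, 12.29 and 12.37, with a difference of -0.30 ± 0.11 (adjusted p = 0.0653). Cox7b, on a dim probe, read 8.18, 7.76 and 7.84 against 7.22, 7.28 and 7.70, with a difference of -0.53 ± 0.24 (adjusted p = 0.126). Cox5b (-0.11) and Cox6c (-0.16) did not pass the test either.

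Of the 3 muscle isoforms of complex IV, Cox7a1 passed the test in A/J and Cox6a2 and Cox8b did not, though all 3 lay below 0 without overlap between the legs. Cox6a2, the muscle isoform of subunit 6A, read 13.19, 13.31 and 13.41 against 13.15, 13.14 and 13.09, and Cox8b, the muscle isoform of subunit 8, read 12.91, 12.99 and 12.90 against 12.86 on each of the ssRNA arrays. Both pairs of groups were narrowly apart (-0.17 ± 0.11 with adjusted p = 0.281, and -0.07 ± 0.13 with adjusted p = 0.765). Cox4i1, the widely expressed form of subunit 4, read 12.81, 12.98 and 12.89 against 12.77, 12.80 and 12.72, with a difference of -0.13 (adjusted p = 0.541). Cox6a2, Cox8b and Cox4i1 are among the 10 members whose intensity passed 50% of an array's maximum (up to 84.8% for Cox6a2). In this range bead arrays can compress differences. The called Cox7a1 (up to 73.0%) and Ndufa4 (up to 54.8%) are among the 10 as well. Whether compression reduced these differences was not tested.

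The widely expressed partner isoforms were not members, and their probes are read on their own scale. Cox6a1, the partner of Cox6a2 outside muscle, read 8.86, 8.32 and 8.98 in A/J saline legs and 9.46, 9.23 and 9.23 in ssRNA legs. All ssRNA arrays were above all saline arrays, and Cox6a1 rose by 0.59 ± 0.17 (SE, adjusted p = 0.0226), with a second probe at 0.70 (adjusted p = 0.00884 over all probes). Cox7a2, the partner of Cox7a1, read 8.002, 8.044 and 7.858 against 7.730, 7.610 and 7.983. These groups overlapped (-0.19 ± 0.18, adjusted p = 0.489). Cox4i2, an isoform of subunit 4 best known from lung, was dim and differed by -0.24 (adjusted p = 0.429). In A/J-MyD88, Cox6a1 differed by 0.11 and Cox7a2 by 0.00 between the legs. Macrophage markers moved with Cox6a1 in A/J (values below), and their part in its rise was not tested.

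**Figure D4:**
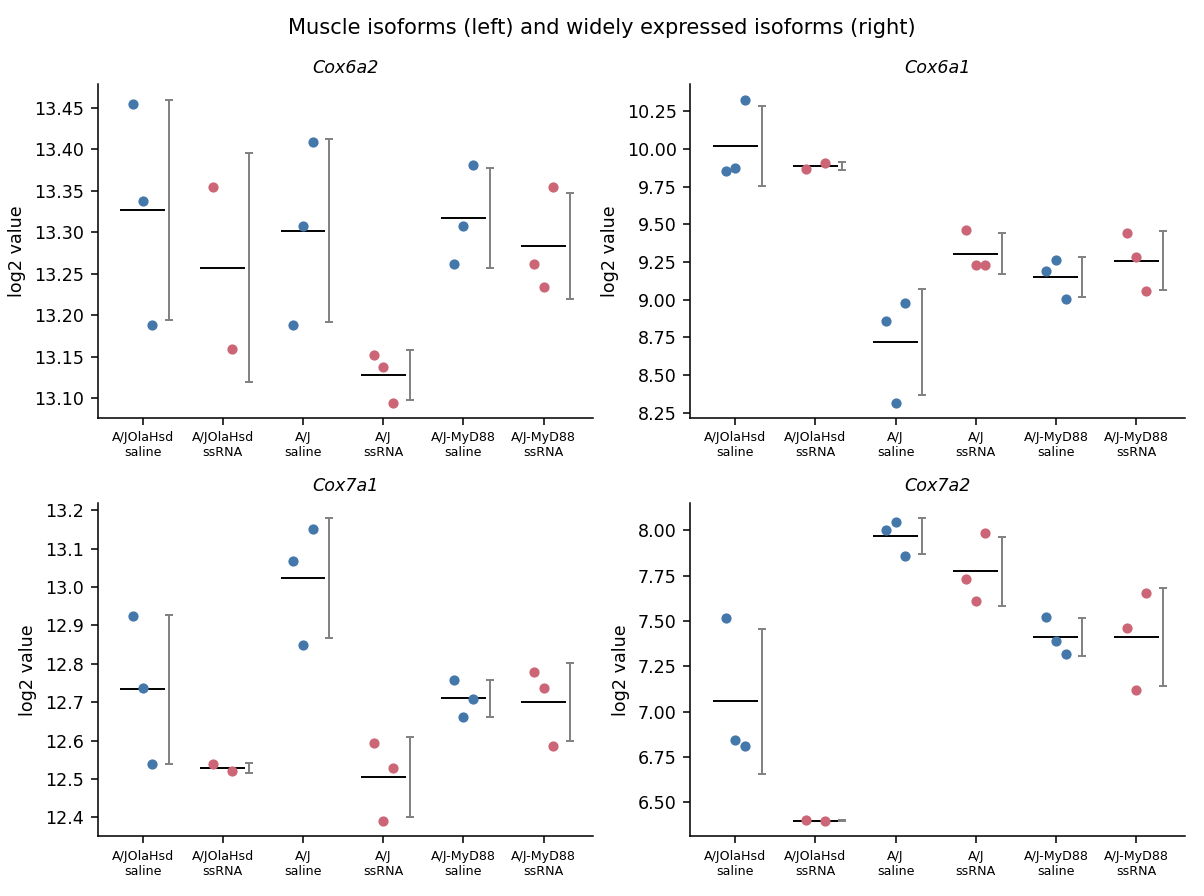
Normalised log2 value (y axis) of the muscle isoforms Cox6a2 and Cox7a1 (left) and the widely expressed isoforms Cox6a1 and Cox7a2 (right) on each array (points), by strain and injection (x axis), with group means (black lines) and SD (grey bars). In A/J, Cox7a1 fell and Cox6a1 rose with ssRNA, while Cox6a2 and Cox7a2 did not pass the test.

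Atp5e, the epsilon subunit in the rotating stalk of the ATP synthase, had the largest difference of the members in A/J. It read 8.43, 7.90 and 8.11 in saline legs and 6.64, 7.71 and 7.29 in ssRNA legs. The groups did not overlap, and ssRNA array 1 was the lowest by a wide step. The difference was -0.93 ± 0.22 (SE, adjusted p = 0.00583), and it ranged from -1.17 to -0.64 as each A/J array was left out. Its probe was dim, at no more than 2.9% of an array's maximum. Of 13 other measured genes of the ATP synthase list, 0 were called lower, where 10.0% of all genes were, and 1 rose (Atpif1). In this list 11 of 13 lay below 0, with a median of -0.22.

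Averaged over the members of a complex, each A/J ssRNA array lay below the mean of the A/J saline arrays for every complex. Over all 44 members the A/J saline arrays stood at -0.05 to 0.04 around their mean and the ssRNA arrays at -0.38, -0.38 and -0.26. Complex I stood at -0.40 to -0.24 on the ssRNA arrays, complex II at -0.41 to -0.12, complex III at -0.40 to -0.32 and complex IV at -0.31 to -0.21. In A/J-MyD88 the members stood at -0.08 to 0.04 in saline legs and -0.06 to 0.10 in ssRNA legs, which overlapped. In A/JOlaHsd the saline arrays alone spread from -0.29 to 0.20, with the ssRNA arrays at 0.00 and 0.02 inside that range.

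**Figure D5:**
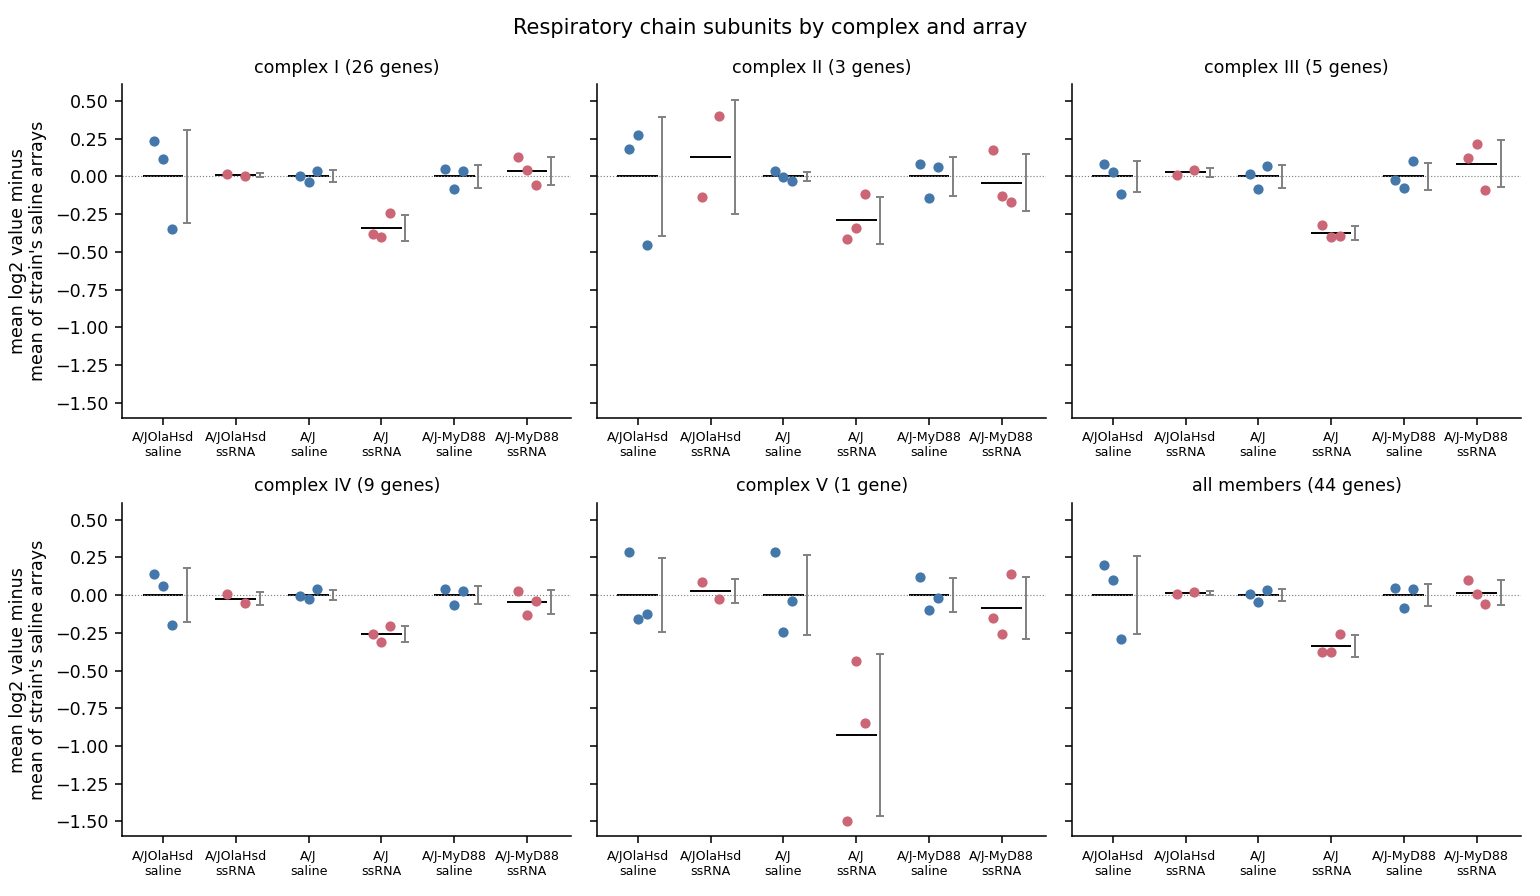
Mean log2 value of the members of each complex on each array, relative to the mean of the same strain's saline arrays (y axis), by strain and injection (x axis), with group means (black lines) and SD (grey bars). The 3 A/J ssRNA arrays lie between -0.38 and -0.26 over all members, and the A/J-MyD88 ssRNA arrays between -0.06 and 0.10.

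In A/J-MyD88 muscle, which lacks both proteins, 0 of 44 members were called between the legs, where 0 of 11233 genes (0%) were called by limma and 0 members and 130 genes had an unadjusted p under 0.05. Differences ran from -0.28 for Cox7b to 0.21 for Uqcrc1, with a median of 0.02 and standard errors of 0.11 to 0.33. No member was called under any of the 18 settings tried. In 4 members (Ndufa2, Ndufs8, Uqcrc1 and Cox4i1) every ssRNA array lay above every saline array, which held for 5.64% of all genes. Uqcrc1 read 11.90, 11.86 and 12.05 in saline legs and 12.13, 12.24 and 12.08 in ssRNA legs, a small step up where A/J stepped down.

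Whether ssRNA acted differently with and without MyD88 was asked with an interaction term (A/J-MyD88 minus A/J). The term was above 0 for 42 of 44 members, with a median of 0.32 against 0.06 over all genes. By this term 2 members were called higher, a share near the 3.34% of all genes. These were Uqcrc1 (0.83 ± 0.17, adjusted p = 0.00642) and Ndufa3 (0.81 ± 0.22, adjusted p = 0.0267). The call of Uqcrc1 held without any one of the 12 arrays, and that of Ndufa3 was lost without any of 7 of them, with adjusted p-values up to 0.0798. Ndufa3 read 12.02, 12.17 and 12.19 in A/J-MyD88 saline legs and 12.14, 12.08 and 12.38 in ssRNA legs, which overlapped. For Ndufv3 (0.68, adjusted p = 0.0559), Cox7a1 (0.51, adjusted p = 0.0718), Atp5e (0.84, adjusted p = 0.0984) and Ndufs7 (0.44, adjusted p = 0.0943) the responses were not shown to differ between the strains in this fit. With a replicate block, pairing the same-numbered legs, Ndufv3 was called as well (0.68, adjusted p = 0.0322). The fit on the 12 arrays of both strains called 13 members, and centring on all probes called 0.

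In wild-type A/JOlaHsd muscle, 0 of 44 members were called, where 1.85% of all genes were, and 0 members had an unadjusted p under 0.05. The differences ran from -0.20 for Cox7a1 to 0.29 for Ndufv3, with standard errors of 0.12 to 0.37 and 2 ssRNA arrays. In 2 members, Ndufa8 and Ndufa10, both ssRNA arrays lay above every saline array, where 9.62% of all genes did. Ndufa10 read 11.39, 11.71 and 11.69 in saline legs and 11.99 and 11.77 in ssRNA legs, and Ndufv3 read 11.89, 11.79 and 11.19 against 12.08 and 11.75.

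Against A/JOlaHsd, the response of A/J was lower in 41 of 44 members, with a median of -0.34 against -0.02 over all genes. Here 2 members were called lower, a share near the 2.56% of all genes. These were Ndufa10 (-0.91 ± 0.23, adjusted p = 0.0281) and Ndufv3 (-0.90 ± 0.23, adjusted p = 0.0286). This comparison shares its A/J arrays with the one above. It was fragile: 0 members were called when any of 5 arrays was left out (A/JOlaHsd ssRNA 1 and A/J saline 1, saline 3, ssRNA 1 or ssRNA 3), and 8 without A/JOlaHsd saline array 1. Without A/JOlaHsd saline array 3 the median was -0.19 and 36 members lay below 0. On that array the members stood at -0.29 and the macrophage markers at 0.44 around the mean of their group, and Lyz2 read 12.68 against 10.45 and 10.43 on the other two, and the part of these markers was not tested. With centring on all probes the median was -0.01 and 23 members lay below 0. The strains also differed in array signal, as given above, and strain and signal cannot be told apart.

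The saline legs of A/J-MyD88, opposite the ssRNA legs, stood slightly below those of A/J for most members. The difference was below 0 for 43 of 44, with a median of -0.21 against -0.02 over all genes, and in 26 members no saline array of A/J-MyD88 reached the lowest of A/J, which held for 13.9% of all genes. One member was called, Atp5e, where 0.988% of all genes were called lower. Atp5e read 6.93, 6.71 and 6.79 in A/J-MyD88 saline legs, well below the 7.90 to 8.43 of A/J, a difference of -1.34 ± 0.22 (SE, adjusted p = 0.00220) that held without any one of the 6 arrays. Its values in A/J-MyD88 and A/JOlaHsd (6.563 to 7.001) overlapped, and A/J saline legs stood apart from both. Macrophage markers also differed between these legs: 10 of 12 were called higher in A/J-MyD88, where 496 of 11233 genes were. Their median difference was 1.45, and their mean level was 7.24 to 7.87 in A/J-MyD88 against 5.86 to 6.57 in A/J, without overlap. Lyz2 was higher by 2.84 (adjusted p = 0.00197), and 0 of the 6 muscle fibre markers were called. Their part in the lower saline values of the members was not tested. The A/J saline arrays enter both the lower ssRNA values of A/J and this baseline difference, and the 2 results are not independent.

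Between the ssRNA legs of the deficient strains, 1 of 44 members was called higher in A/J-MyD88, a share near the 2.68% of all genes. Uqcrc1 read 12.13, 12.24 and 12.08 in A/J-MyD88 against 11.65, 11.63 and 11.53 in A/J, a difference of 0.55 ± 0.12 (SE, adjusted p = 0.0193). The call was lost without A/J ssRNA array 3 or A/J-MyD88 ssRNA array 2. In 16 members all A/J-MyD88 arrays were above all A/J arrays, where 19.9% of all genes were, and the median over the members was 0.16 against 0.03. Ndufa3 (0.54) had an adjusted p of 0.0511.

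The saline legs of A/J and A/JOlaHsd differed in many members and in both directions. In A/J 16 members were higher and 9 lower, where 22.9% of all genes were called higher and 24.4% lower. Sdhd read 8.62, 8.57 and 8.29 in A/J and 6.05, 6.64 and 5.72 in A/JOlaHsd, a difference of 2.36 (adjusted p = 5.64e-06), and Ndufb10 differed by 2.30 and Ndufb9 by 2.02. Lower in A/J were Ndufc2 (-1.06), Ndufc1 (-0.94) and Ndufs6 (-0.63). The split moved with the scaling, to 29 higher and 3 lower with centring on detected probes and to 42 and 0 with centring on all probes, which moved the median of all genes by 0.77. Cell-type markers differed between the same legs. The mean level of the muscle fibre markers was 13.15 to 13.16 in A/J against 12.34 to 12.66 in A/JOlaHsd, with 3 of 6 called higher in A/J, and that of the erythroid markers was 8.35 to 8.88 against 8.96 to 10.70, with 2 of 2 called lower. Of 12 macrophage markers, 6 were called lower and 1 higher in A/J, and their mean levels overlapped. The part of these markers was not tested, and strain and the lower signal of the A/JOlaHsd arrays cannot be told apart here.

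Genes around the members in the pathway were read from lists in A/J, and their counts stand against the 10.0% of all genes called lower. Of 27 other measured subunits of the 5 complexes, 4 fell (14.8%) and 1 rose, with a median of -0.24. Among the members 14 of 44 fell, and both lists were chosen with earlier results of these data known. The 4 were Ndufa11 (-0.83, adjusted p = 0.00489), Ndufa12 (-0.67, adjusted p = 0.00203) and Ndufab1 (-0.42, adjusted p = 0.00870) of complex I and Cox6b1 (-0.48, adjusted p = 0.00539) of complex IV, and the 1 that rose was Cox6a1. Ndufab1 is the mitochondrial acyl carrier protein, and 3 further probes of it gave -0.23 to 0.03, none called. Atpif1, which inhibits the ATP synthase when it runs in reverse and was counted apart from its subunits, rose by 0.81 (adjusted p = 0.00117), with a second probe at 0.29 (adjusted p = 0.386). The response difference between A/J-MyD88 and A/J was called for Ndufa11 (0.95, adjusted p = 0.0342), Ndufab1 (0.53, adjusted p = 0.0307) and Cox6b1 (0.54, adjusted p = 0.0374).

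Of 36 measured assembly factors, 4 were called lower in A/J, a share (11.1%) near that of all genes, and 0 higher, with a median of -0.30. Examples were Atpaf1 (-0.54), which assembles the F1 part of the ATP synthase, Sdhaf2 (-0.44), which attaches the flavin of complex II, and Cox10 (-0.42), which makes the heme of complex IV. Among 15 electron carriers and coenzyme Q genes, 3 fell and 0 rose, few genes to set against 10.0%, namely Coq7 (-0.84), an enzyme of ubiquinone synthesis, Etfb (-0.76), part of the flavoprotein that feeds electrons from fatty acid oxidation, and Coq10a (-0.63), which binds ubiquinone. Of 19 regulators of mitochondrial biogenesis, 6 fell (31.6%) and 0 rose. Esrrb, an oestrogen-related receptor, fell by 1.05 on the log2 scale (adjusted p = 0.000370), Twnk, the helicase of mitochondrial DNA, by 0.83 (adjusted p = 0.00107), and Polg, its polymerase, by 0.58 (adjusted p = 0.00590).

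Of 12 carriers, porins and energy transfer genes, 4 fell (33.3%) and 1 rose in A/J. The ADP/ATP carriers are a pair of tissue forms. Slc25a4, the carrier of heart and skeletal muscle, read 6.33, 5.90 and 6.08 in saline legs and 5.11, 5.27 and 5.19 in ssRNA legs on a dim probe, a difference of -0.91 ± 0.20 (SE, adjusted p = 0.00423). Slc25a5, which most dividing and non-muscle cells use, read 9.50, 9.58 and 9.47 against 10.58, 10.54 and 10.47, and rose by 1.01 ± 0.12 (SE, adjusted p = 1.92e-05). Neither gene's groups overlapped, and they moved in opposite directions. Slc25a12, the aspartate and glutamate carrier, fell by 0.89 (adjusted p = 0.00115), with a second probe at -0.35 (adjusted p = 0.361). Among 16 genes of mitochondrial import and structure, 4 fell (25.0%), including Tomm40 (-0.65), the outer membrane pore, Mfn1 (-0.62), which fuses mitochondria, and Timm44 (-0.57). Of 23 mitochondrial ribosome genes, 7 fell (30.4%), including Mrpl2 (-0.80), Mrps5 (-0.66) and Mrpl34 (-0.64), and a second Mrps5 probe gave 0.12. No gene of these import and ribosome lists rose, and a second Tomm40 probe gave -0.30 (adjusted p = 0.227).

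Markers of other cell types moved with these falls in A/J. All 12 measured macrophage markers rose, with a median of 2.70, led by Lyz2 (3.40), Ctss (3.12) and Tyrobp (2.97). Their mean stood 2.46 to 2.89 above the saline mean on the A/J ssRNA arrays, while the A/J-MyD88 ssRNA arrays stood at -0.25 to 0.13. Of 5 fibroblast markers 4 rose, with Col3a1 at 1.47, Col1a1 at 1.45 and Lum at 0.97, and second probes of Col3a1 (0.80) and Lum (0.77) did not pass. Further Lyz2 probes gave 2.75 and 0.62, both called. Over all genes, 12.4% were called higher in A/J. Of the 6 muscle fibre markers 0 were called and 5 lay below 0, with a median of -0.17 and the lowest p for Acta1 (-0.27, adjusted p = 0.146). Their mean stood at -0.28 to -0.07 around the saline mean on the A/J ssRNA arrays, where the members stood at -0.38 to -0.26. The fibre markers were brighter, with a mean level of 13.15 to 13.16 in A/J saline legs against 11.34 to 11.42 for the members. Bead arrays can compress differences of bright probes, and whether they did so for the fibre markers was not tested. The part of all these markers in the lower values of the members was not tested.

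Among the slow fibre genes, Myl3 fell by 1.25 on the log2 scale (adjusted p = 0.00483) and Tnni1 rose by 1.15 (adjusted p = 0.00707) in A/J, and Myh7 was not detected under the filter. Slow fibres hold more mitochondria than fast ones, and the 2 genes moved in opposite directions. Tnnc1 (mean 8.10 in saline and 8.94 in ssRNA legs) and Myl2 (7.90 and 7.15) were not called. Around the saline mean, the mean of the slow fibre genes overlapped between the legs of A/J. In A/J-MyD88 it stood at 0.56 to 0.75 on the ssRNA arrays against -0.05 to 0.07 on the saline arrays. The part of fibre type in the values of the members was not tested. Of the smooth muscle markers Myh11 fell (-0.67, adjusted p = 0.00824). Acta2 went the other way, with a mean of 11.18 in saline and 11.49 in ssRNA legs, and was not called. The mean of these markers overlapped between the legs. No gene was called among the endothelial (lowest p for Pecam1, -0.22), adipocyte (Adipoq, 1.37, adjusted p = 0.109), erythroid (Alas2, -0.68) and brown adipocyte markers, where Cidea differed by -0.02 and Ucp1 was detected on 0 arrays.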

How the data were processed

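RNA of 18 tibialis anterior samples (6 groups of 3, by title) was measured on Illumina bead arrays. The deposited intensity values are probe signals exported from GenomeStudio, per the submitters' processing notes (version not given in the sources used here), and fall below 0. The detection p-value of each probe comes with them, per the file headers. The authors' normalized intensity table, whose method is not given in the sources used here, served as an alternative.

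Signals were background-corrected with detection p-values, quantile-normalized and put on log2 with neqc (offset 16; limma 3.58.1, R 4.3.3). The filter required detection (p under 0.05) on 3 arrays or more and passed 20825 of 45281 probes, and each gene took its probe of highest mean signal. Of all probes, 34885 had 1 symbol, 18 several or none and 10378 were not listed in the platform annotation. Group means were fitted with limma (lmFit, eBayes) on 17 arrays, with Benjamini-Hochberg adjustment over 11233 genes and calls at an adjusted p under 0.05. The median SE was 0.16 in A/J and 0.18 in A/JOlaHsd. The fit was tested on simulated data.

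The members and gene lists were chosen with earlier results of these data known. Array values are given for up to 4 members of complexes I, III and IV, 2 of complex II and 1 of complex V with the smallest p in A/J, and for isoform pairs. From other lists up to 3 called genes with the largest differences are named, or the 1 of smallest p. Predicted and clone names were passed over.

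The series design sets each leg against the opposite leg. Deviations of same-numbered legs from their group means correlated with r from 0.139 to 0.434 (A/J), from 0.172 to 0.470 (A/J-MyD88) and of -0.123 and -0.103 (A/JOlaHsd). For different-numbered legs r ran from -0.49 to 0.168, from -0.305 to 0.083 and from -0.009 to 0.123 in the same order. Deviations within a group sum to 0, so these r values are not independent. Alternatives were no background correction, other centring, strains normalized alone, the authors' values, no filter, another probe choice, other sets of arrays, each array left out and a replicate block. Centring on all probes and the fit on 12 arrays were chosen after seeing the data.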

Additional observations from a re-analysis of the deposited data

Results flagged for a closer look

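The ssRNA response of A/J-MyD88 was called higher than that of A/J by an interaction term in limma for 2 of 44 members, where 3.34% of all genes were. These were Uqcrc1 (0.83, adjusted p = 0.00642) and Ndufa3 (0.81, adjusted p = 0.0267). With 1 array left out, Uqcrc1 kept its call in 12 of 12 fits and Ndufa3 in 5 of 12. In A/J every ssRNA array was below every saline array for both genes, which held for 24.1% of all genes. The response of A/J was called lower than that of A/JOlaHsd for Ndufa10 (-0.91, adjusted p = 0.0281) and Ndufv3 (-0.90, adjusted p = 0.0286), where 2.56% of all genes were. This comparison has 2 ssRNA arrays in A/JOlaHsd, and array signal and strain cannot be told apart in it. Both calls were lost without A/J saline array 1 or 3 or A/J ssRNA array 1 or 3. Both counts, of 2 among 44 members, are near the shares of all genes. None of the calls in this section was made with centring on all probes.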

How the results depend on the processing

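The members called lower in A/J (14) numbered 9 with the authors' values, 3 with centring on all probes, 0 with 18 arrays and 7 to 13 as each array was left out. The median of the members stayed below that of all genes in each of the 18 settings. For the response difference between A/J-MyD88 and A/J (2 higher), the count was 5 without background correction, 6 with centring on detected probes, 4 with strains normalized alone, 1 with the authors' values, 0 with 18 arrays or centring on all probes, 13 with only the compared arrays (the same 12 arrays of both strains) and 1 to 4 with an array left out. For A/J against A/JOlaHsd (2 lower), it was 4 without background correction, 0 with the authors' values, 18 arrays, only the compared arrays or centring on all probes, and 0 to 8 with an array left out. With 18 arrays its values for Ndufa10 (1.60) and Ndufv3 (1.497) turned sign. That setting puts the signal-free A/JOlaHsd ssRNA array 2 back into its group. The members' median ssRNA response in A/JOlaHsd was then -2.21, against 0.01 as reported. Between saline legs of A/J-MyD88 and A/J (1 lower), the count was 5 with centring on detected probes or only the compared arrays, 2 with centring on all probes, 3 with 12 arrays and 0 with 18. Between their ssRNA legs, 1 higher became 3 without background correction, 2 with centring on detected probes, 4 with only the compared arrays, 7 with 12 arrays, 0 with 18 arrays or centring on all probes, and 0 to 1 with an array left out. There, 0 lower became 1 with only the compared arrays, 3 with centring on all probes, 2 with 12 arrays and 0 to 1 with an array left out. Between saline legs of A/J and A/JOlaHsd (16 higher, 9 lower), counts were 29 and 3 with centring on detected probes, 42 and 0 with centring on all probes and 4 and 0 with 18 arrays. Cidea (-0.02 in A/J) was 0.23 with centring on all probes and -0.0626 to 0.0187 with an array left out. The cause of these changes was not tested.

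With a replicate block, 12 members were called lower in A/J, where Ndufa4 (adjusted p = 0.0955) and Ndufv1 (adjusted p = 0.0510) lost their call, and the response differences called 3 members each, adding Ndufv3 for A/J-MyD88 and Ndufa8 for A/JOlaHsd. Dim probes (Atp5e, Uqcrq, Cox7b) and bright ones limit what these arrays resolve.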
